A study of Arabidopsis thaliana with 36 samples.

Results

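The 44 genes described here are nuclear genes of the light-harvesting antenna, of both photosystems and of the electron carriers and ATP synthase that work with them in Arabidopsis thaliana. They were taken by locus identifier from a deposited table of 33977 genes, with earlier results of these data known. By role they are 9 genes of LHCII, the main antenna of photosystem II, 5 of its minor antenna, 4 of the photosystem I antenna, 10 of photosystem I subunits, 10 of photosystem II subunits and 6 of electron carriers or ATP synthase. The plants were of the Col-0 ecotype, 4 weeks old, grown in soil in short days. They received no radiation (mock), 10 cGy or 100 cGy of gamma rays from a caesium source, and whole rosettes were collected 1, 3, 24 or 72 h later. Each of the 12 combinations of dose and time has 3 poly(A) RNA libraries, and the question put by the design is how irradiated plants differ from mock plants of the same time. Whether replicates came from different plants or different exposures is not in the labels, and the p-values below therefore cover only the spread among these libraries. The labels also give neither the clock time of harvest nor how mock plants were handled beyond not being exposed.

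Light energy for photosynthesis is gathered by chlorophyll-binding antenna proteins in the thylakoid membrane and passed to the reaction centres. Photosystem II, fed by the LHCB proteins, takes electrons from water, and its extrinsic subunits PsbO, PsbP and PsbQ keep the manganese cluster that does this in place. The electrons pass through the cytochrome complex, whose Rieske protein is encoded by PETC, and plastocyanin (PETE1 and PETE2) to photosystem I, fed by the LHCA proteins, and from there to ferredoxin (FD2). The reaction-centre cores are encoded in the chloroplast, while the antenna and most outer subunits are nuclear genes, known in leaves for very abundant mRNAs that follow light and the day.

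Several of these proteins come from near-identical gene copies, and the results below differ between copies, so the starts of the coding sequences of LHCB1 are shown first. LHCB1.1 (AT1G29920), LHCB1.2 (AT1G29910) and LHCB1.3 (AT1G29930) lie next to each other on chromosome 1, and LHCB1.4 (AT2G34430) lies beside LHCB1.5 (AT2G34420) on chromosome 2. The first 90 coding bases are given 5′ to 3′ from the TAIR10.1 RefSeq genome, at chr1:10475803-10475892 on the minus strand, chr1:10473157-10473246 on the minus strand, chr1:10478071-10478160 on the plus strand and chr2:14524818-14524907 on the plus strand. Capitals mark bases that differ from LHCB1.3 at the same position.
LHCB1.1: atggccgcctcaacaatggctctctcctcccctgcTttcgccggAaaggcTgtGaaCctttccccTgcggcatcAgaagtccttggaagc
LHCB1.2: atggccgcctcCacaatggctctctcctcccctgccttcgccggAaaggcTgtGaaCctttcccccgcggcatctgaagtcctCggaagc
LHCB1.3: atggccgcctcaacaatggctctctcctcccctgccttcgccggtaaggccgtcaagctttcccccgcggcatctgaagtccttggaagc
LHCB1.4: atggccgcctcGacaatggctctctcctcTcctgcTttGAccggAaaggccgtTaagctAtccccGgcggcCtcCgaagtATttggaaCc
LHCB1.1 differs from LHCB1.3 at 7 of these bases, LHCB1.2 at 6 and LHCB1.4 at 14. Over the whole coding sequence LHCB1.1 and LHCB1.3 are 96.1% identical, LHCB1.2 and LHCB1.3 96.4%, and LHCB1.3 and LHCB1.4 86.8%. LHCB1.4 and LHCB1.5 are 91.4% identical with a shared run of 122 bases. LHCB2.1 (AT2G05100) and LHCB2.2 (AT2G05070) are 96.6% identical with a shared run of 152 bases. Reads of such copies can be split between them by the upstream estimation, so single values of the 5 LHCB1 genes, LHCB2.1 and LHCB2.2 are uncertain. Sums are given with them for LHCB1.1 to LHCB1.3, for LHCB1.4 with LHCB1.5 and for LHCB2.1 with LHCB2.2. Copies of the other families named below are further apart, at 86.3% identity for PSAD1 (AT4G02770) and PSAD2 (AT1G03130), 83.6% for PSBO1 (AT5G66570) and PSBO2 (AT3G50820), 81.1% for LHCB4.1 (AT5G01530) and LHCB4.2 (AT3G08940), 76.9% for PSBQ1 (AT4G21280) and PSBQ2 (AT4G05180) and 72.9% for PETE1 (AT1G76100) and PETE2 (AT1G20340).

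The 250 bases upstream of each annotated gene start were searched on both strands for letters known from promoters of photosynthesis genes. The motifs were the G-box CACGTG, the I-box GATAAG, the letters CCAATC that GLK transcription factors bind, and the evening element AAAATATCT of clock-controlled genes. The promoters of 3 members are shown with each match in capitals because they belong to the most abundant member, the member that moved most and a member with both kinds of match. In TAIR10.1 they lie at chr1:10477635-10477884 on the plus strand, chr2:14524357-14524606 on the plus strand and chr5:208616-208865 on the plus strand.
LHCB1.3: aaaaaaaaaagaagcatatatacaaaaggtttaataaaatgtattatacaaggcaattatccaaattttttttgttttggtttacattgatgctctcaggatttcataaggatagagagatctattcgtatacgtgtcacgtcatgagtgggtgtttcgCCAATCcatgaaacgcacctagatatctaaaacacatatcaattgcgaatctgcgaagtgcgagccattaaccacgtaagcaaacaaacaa
LHCB1.4: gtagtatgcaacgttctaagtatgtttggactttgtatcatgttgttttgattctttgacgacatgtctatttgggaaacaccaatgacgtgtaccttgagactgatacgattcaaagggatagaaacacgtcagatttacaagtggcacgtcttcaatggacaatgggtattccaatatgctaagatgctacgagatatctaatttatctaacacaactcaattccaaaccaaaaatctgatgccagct
LHCB4.1: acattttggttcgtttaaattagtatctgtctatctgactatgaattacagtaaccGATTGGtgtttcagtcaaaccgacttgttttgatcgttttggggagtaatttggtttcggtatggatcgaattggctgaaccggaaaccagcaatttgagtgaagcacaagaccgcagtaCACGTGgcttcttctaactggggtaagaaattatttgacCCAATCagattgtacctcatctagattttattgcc
The LHCB1.3 window holds CCAATC, whose first base lies 91 bases before the gene start. The LHCB1.4 window holds none of these letters. The LHCB4.1 window holds the G-box 74 bases before the start, and CCAATC 35 bases before it and, on the other strand, 194 bases before it. CCAATC occurred in 14 of 44 members (31.8%), against 10.2% of 27443 promoters of the same length, the I-box in 11 (25.0%, against 12.3%), the G-box in 8 (18.2%, against 6.5%) and the evening element in 1, ATPC1 (2.3%, against 2.4%). A match says only that the letters are there. Some windows run into an annotated exon of a neighbouring gene, and those of all genes were not screened for this. With the G-box these were LHCB6, PSAH2, PSBQ1 and ATPD. With CCAATC they were LHCB4.2, LHCA1, PETE2 and ATPD, and with the I-box LHCB4.2, LHCB6, LHCA1, PSAH2 and PETE2. Close copies can also share a match, as LHCB2.1 and LHCB2.2 both hold CCAATC.

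Recovered depth was 22.1 to 36.7 M reads per library, and the shallowest library, replicate 1 of 100 cGy at 3 h, still put 3 reads at 0.136 CPM (the authors' unit, reads of a gene scaled to a common library total), a limit that covers counting error only. All 44 members passed the filter on low values (3 or more libraries at 1 CPM or above), as did 18875 genes in all. Replicates correlated across genes at 0.979 to 0.994. The label of rosette tissue was checked with leaf, root, flower and seed markers: the 6 leaf markers (among them RBCS1A, RCA and CA1, of carbon fixation) summed to 25729 to 38529 CPM over the 36 libraries. The flower and seed markers summed to at most 0.992 and 0.255 CPM, and of 5 root markers only SCR and PYK10 passed the filter, with a sum over all 5 of 75.5 to 204 CPM. Replicate 1 of 10 cGy at 3 h stood apart by its chloroplast-encoded RNA (0.608% of CPM, against at most 0.331% in the other libraries). Replicates 2 and 3 of 100 cGy at 3 h stood apart by the scale of the table: the median ratio of their genes to their geometric mean over all libraries was 1.096 and 1.109, beside 0.946 to 1.06 in the other 34, replicate 1 of that group included, and replicate 3 had the most genes at 1 CPM or above (18145). Results at 3 h after 100 cGy are therefore also given with replicate 1 alone, an alternative chosen after seeing the data, in which the lone library is assumed to vary like the other groups. Standard errors are wider with a lone library, so calls can be lost there even where the change stays the same.

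The members were among the most abundant mRNAs of the rosette and together took 11.7% to 16.6% of all CPM in a library. Set per kilobase of annotated exon, LHCB1.3 was highest with a median of 17644 CPM per kb over the 36 libraries (range 14554 to 21107). LHCB1.5 followed at 7440, LHCA4 (AT3G47470) at 5831, LHCB1.1 at 5784, LHCB1.2 at 5584 and LHCB5 (AT4G10340) at 4876 CPM per kb. LHCB1.3 lay above each of these in 36 of 36 libraries, and LHCB1.5 above LHCA4 and LHCB1.2 in 35 and above LHCB1.1 and LHCB5 in 36. LHCA4 lay above LHCB1.1 in 22 and above LHCB1.2 in 26, and LHCB1.1 above LHCB1.2 in 20, so the order of these 3 varied between libraries. The subunits, carriers and ATP synthase genes other than PETE1 lay between 889 (ATPC1, AT4G04640) and 4280 CPM per kb (PSBR, AT1G79040). PETE1, the minor plastocyanin copy, stood at 217 and LHCB4.3 (AT2G40100), a rarely used antenna copy, at 20.7 CPM per kb, both clear of every other member.

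**Figure D1:**
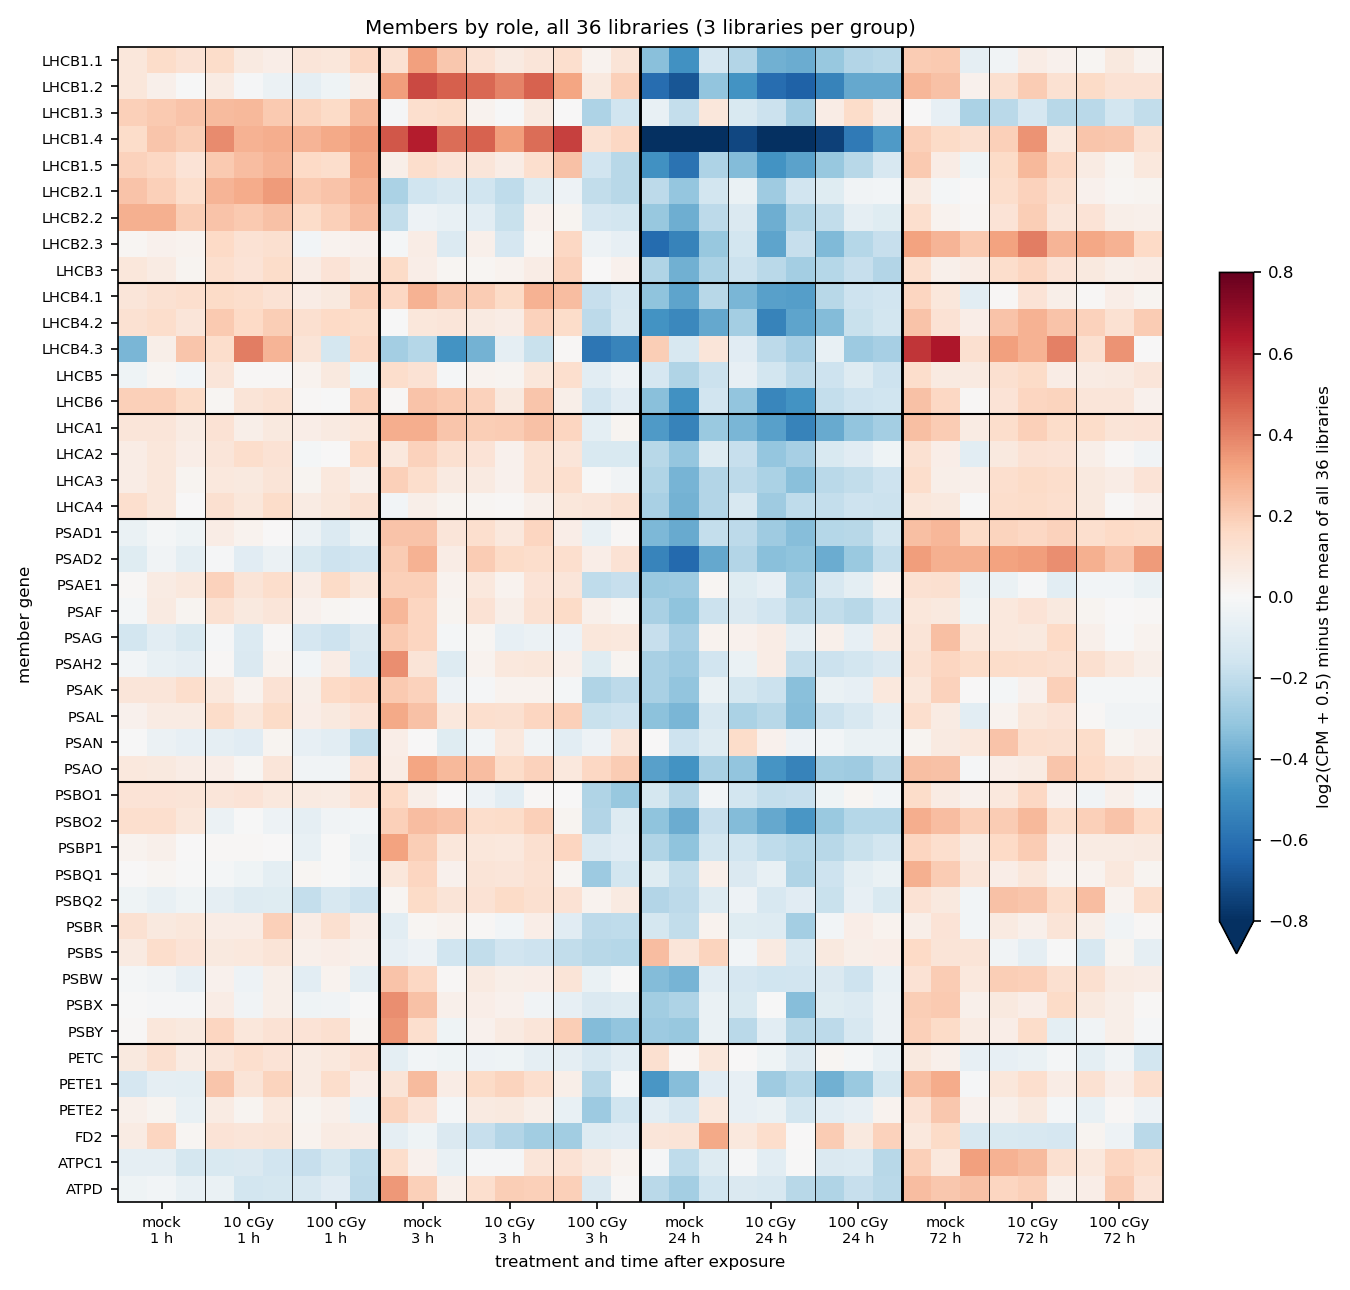
Each column is 1 of the 36 libraries and each row 1 of the 44 members, ordered by role; colour gives log2(CPM + 0.5) minus the member's mean over the 36 libraries. The 24 h columns are lower than the others in most antenna rows. LHCB1.4 at 24 h lies beyond the end of the colour scale in mock and in replicates 2 and 3 of 10 cGy. It lies within the scale in replicate 1 of 10 cGy and at 100 cGy.

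The summed share of the members was lowest at 24 h. In mock rosettes the 44 members took 15.8, 15.9 and 15.6% of CPM at 1 h, 16.0, 16.6 and 15.9% at 3 h, 12.5, 11.7 and 13.6% at 24 h and 16.3, 15.9 and 14.7% at 72 h. At 10 cGy the shares were 16.2, 15.9 and 16.1% at 1 h, 15.7, 15.4 and 16.0% at 3 h, 13.1, 12.4 and 12.0% at 24 h and 15.5, 16.0 and 15.5% at 72 h. At 100 cGy they were 15.4, 15.6 and 16.0% at 1 h, 15.8, 13.8 and 14.2% at 3 h, 13.2, 13.7 and 13.8% at 24 h and 15.2, 15.1 and 15.0% at 72 h. Every 24 h library lay below every 1 h and 72 h library, whatever the dose. At 3 h, replicates 2 and 3 of 100 cGy lay below all mock and 10 cGy libraries, while replicate 1 of 100 cGy lay among them. In whole rosettes, fewer green cells and less of these mRNAs per cell cannot be told apart.

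**Figure D2:**
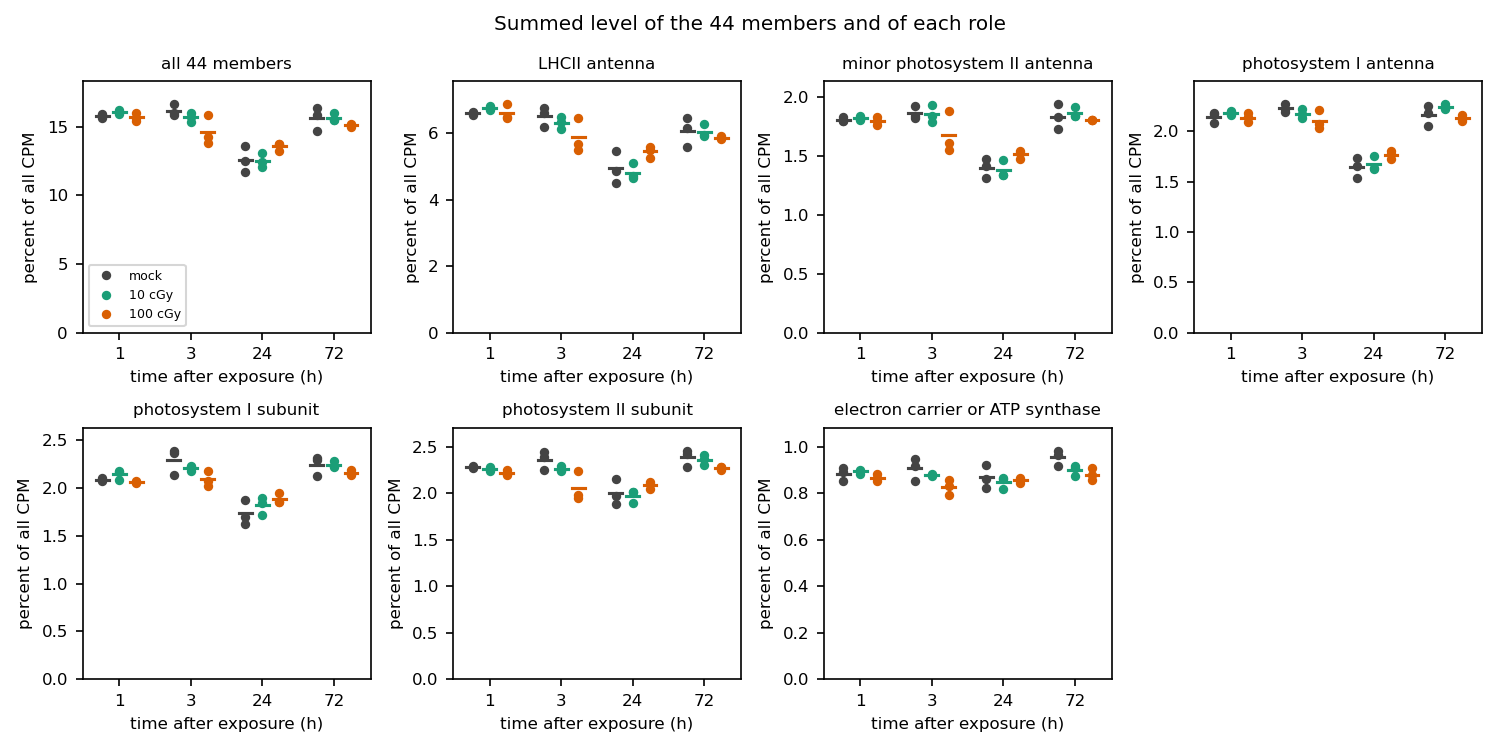
Percent of all CPM taken by each role, 1 point per library, by time and dose; dashes mark group means. The 44 members together take 11.7% to 13.8% of CPM in the 24 h libraries, below all 1 h and 72 h libraries.

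At 1 h after exposure few members were called, while many other genes were. A gene is called here where its adjusted p, from limma with Benjamini-Hochberg adjustment over the 18875 genes tested, was under 0.05, and changes are log2 fold changes of CPM + 0.5. At 10 cGy, 1 member rose and 1 fell, beside 25.3% of all genes called, and at 100 cGy 1 fell, beside 17.6% of all genes. The median change of the 44 members was 0.03 at 10 cGy and -0.01 at 100 cGy, beside medians over all genes of -0.01 and 0.02. Both comparisons share the mock libraries. PSBO2, the minor copy of the PsbO subunit, had 1201, 1238 and 1211 CPM at 10 cGy and 1185, 1218 and 1226 CPM at 100 cGy, against 1362, 1364 and 1326 CPM in mock. Neither irradiated group overlapped mock, and the change was -0.15 (SE 0.05, adjusted p = 0.0388) at 10 cGy and -0.16 (SE 0.05, adjusted p = 0.0378) at 100 cGy. PETE1 had 255, 234 and 248 CPM at 10 cGy and 229, 241 and 227 CPM at 100 cGy, against 199, 208 and 207 CPM in mock. Both irradiated groups lay above mock, with changes of 0.26 (SE 0.08, adjusted p = 0.0197) at 10 cGy and 0.18 (SE 0.08, adjusted p = 0.138), which was not called, at 100 cGy. Separation from mock was common at 1 h: at 10 cGy 13 of 44 members lay wholly above and 4 wholly below, beside 22.2% and 20.2% of all genes. At 100 cGy 2 lay above and 7 below, beside 21.7% and 16.7%. Each call at 1 h was lost on leaving out a library: that of PSBO2 whichever of the 6 was left out, at either dose (adjusted p up to 0.108 at 10 cGy and 0.132 at 100 cGy), that of PETE1 without mock replicate 1 or 10 cGy replicate 1 or 3 (up to 0.0733). That of PSBO2 was also lost at 10 and 100 cGy without the filter (adjusted p = 0.0721 and 0.0726), after rescaling by median ratios (0.165 and 0.112) and after rescaling to genes other than the members (0.0723 and 0.0608). The 5 root markers summed to 81.2, 88.9 and 84.6 CPM at 10 cGy and 95.5, 118 and 97.5 CPM at 100 cGy, against 125, 122 and 121 CPM in mock, and their part in these calls was not tested.

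At 3 h, 14 of 44 members fell at 100 cGy and none rose, beside 1.86% of all genes called lower and 10.6% called higher. With replicate 1 of 100 cGy alone no member was called and the median change of the members was -0.04. With all 3 libraries the median change of the members was -0.14, with 38 of 44 below 0, beside a median over all genes of 0.09. At 10 cGy no member was called, beside 1.49% of all genes, and the median was -0.04. At an unadjusted p under 0.05 the 10 cGy comparison had 3 members, beside 16.3% of all genes at that threshold: PSBX (-0.20, SE 0.07, adjusted p = 0.151), PSAG (-0.15, SE 0.06, adjusted p = 0.222) and FD2 (-0.16, SE 0.07, adjusted p = 0.242). By role the calls at 100 cGy were 6 of 10 photosystem II subunits (median -0.23), 4 of 10 photosystem I subunits (median -0.11), and 1 each of 9 LHCII genes (-0.13), 5 minor antenna genes (-0.12), 4 photosystem I antenna genes (-0.14) and 6 carriers or ATP synthase genes (-0.13).

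Subunits of photosystem II made up 6 of these 14 falls. PSBO2 had 1262, 1055 and 1159 CPM at 100 cGy, against 1418, 1474 and 1457 CPM in mock. The 100 cGy libraries all lay below mock, and the change was -0.33 (SE 0.05, adjusted p = 0.000548). Its major copy PSBO1 had 3654, 3087 and 2958 CPM at 100 cGy, against 4074, 3772 and 3649 CPM in mock, and fell by 0.25 on the log2 scale (SE 0.06, adjusted p = 0.0109). Replicate 1 of 100 cGy overlapped mock there. PSBP1 (AT1G06680) and PSBQ1, the other extrinsic subunits, changed by -0.22 (SE 0.06, adjusted p = 0.0248) and -0.24 (SE 0.06, adjusted p = 0.0159), while the second copy PSBQ2 stood at -0.02 (SE 0.05, adjusted p = 0.834). The small membrane subunits PSBX (AT2G06520) and PSBY (AT1G67740) changed by -0.31 (SE 0.07, adjusted p = 0.00699) and -0.31 (SE 0.10, adjusted p = 0.0402). PSBX had 1334, 1288 and 1300.0 CPM at 100 cGy, against 1806, 1638 and 1436 CPM in mock, without overlap. In this comparison 10 of 44 members lay wholly below mock and 1 wholly above, beside 4.41% and 22.2% of all genes.

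Among photosystem I genes PSAK (AT1G30380), a subunit beside the antenna, had 1775, 1523 and 1555 CPM at 100 cGy, against 2078, 2043 and 1746 CPM in mock. Replicate 1 of 100 cGy overlapped mock, and the change was -0.27 (SE 0.07, adjusted p = 0.0179). PSAL (AT4G12800), at the docking site of mobile LHCII, changed by -0.26 (SE 0.07, adjusted p = 0.0242), PSAE1 (AT4G28750) of the ferredoxin side by -0.23 (SE 0.08, adjusted p = 0.0438) and PSAD1, the ferredoxin-docking subunit, by -0.18 (SE 0.05, adjusted p = 0.0218). The second copy PSAD2 stood at -0.08 (SE 0.06, adjusted p = 0.336). LHCA1 (AT3G54890), of the photosystem I antenna, had 6018, 5064 and 5436 CPM at 100 cGy, against 6543, 6549 and 6240.4 CPM in mock, without overlap, and changed by -0.23 (SE 0.06, adjusted p = 0.0185). In the photosystem II antenna LHCB1.2 had 8107, 6865 and 7422 CPM at 100 cGy, against 8219.6, 9396 and 9074 CPM in mock. It changed by -0.25 (SE 0.08, adjusted p = 0.0367), LHCB4.1 by -0.24 (SE 0.08, adjusted p = 0.0388), and the sum of LHCB1.1 to LHCB1.3 by -0.21 (SE 0.08, adjusted p = 0.088), which was not called. PETE2, the major plastocyanin copy, changed by -0.26 (SE 0.06, adjusted p = 0.00956).

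Of the 14 falls at 3 h, only that of PSBO2 held whichever of the 6 libraries was left out. The count was 24 without 100 cGy replicate 1, 2 without its replicate 2 and 5 without its replicate 3, and 3, 4 and 15 without mock replicates 1, 2 and 3. With the spread taken from the 3 h libraries alone it was 1, and 512 rather than 2346 of all genes were called. With replicate 1 of 100 cGy alone PSBO2 stood at -0.20 and PSBX at -0.28. The other 12 of the 14 falls stood between -0.14 and 0.05, with LHCB4.1 (0.03) and PSBY (0.05) above 0. The standard errors of that fit are wider, so its loss of calls is in part due to the smaller number of libraries. Among the 6 leaf markers CA1 (-0.25), RCA (-0.27) and RBCS1A (-0.23) fell and none rose. Their sum over the 6 was 26994, 25842 and 25729 CPM at 100 cGy, against 30949, 30654 and 29177 CPM in mock, and at 10 cGy, where no member was called, it was 28038, 26799 and 27866 CPM. The 5 root markers summed to 121, 115 and 127 CPM at 100 cGy, against 91.6, 77.6 and 108 CPM in mock. Whether these bear on the falls was not tested. Rescaling by median ratios moved the median over all genes to -0.01, against 0.09 as deposited, and with it 20 members fell and none rose, while the higher share of all calls was 33.1%, against 85.0% as deposited.

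Set directly against 10 cGy at 3 h, 100 cGy had 6 members lower and none higher, beside 0.821% of all genes called lower and 11.7% called higher. They were PSBO2 (-0.27, SE 0.05, adjusted p = 0.00272), LHCB1.2 (-0.25, SE 0.08, adjusted p = 0.0412), PSBQ1 (-0.25, SE 0.06, adjusted p = 0.0126), PETE2 (-0.24, SE 0.06, adjusted p = 0.0155), LHCB4.1 (-0.23, SE 0.08, adjusted p = 0.0444) and PSBR (-0.18, SE 0.06, adjusted p = 0.0391), a small subunit beside the water-splitting complex. The sum of LHCB1.1 to LHCB1.3 stood at -0.15 (SE 0.08, adjusted p = 0.225), which was not called. PSBO2 had 1262, 1055 and 1159 CPM at 100 cGy, against 1369.7, 1375 and 1422 CPM at 10 cGy, without overlap, and PSBO2 alone kept its call whichever library was left out. The count was 22 without 100 cGy replicate 1, 1 without its replicate 2 and 3 without its replicate 3, and 3, 2 and 3 without 10 cGy replicates 1, 2 and 3. With replicate 1 of 100 cGy alone it was 0, with PSBO2 at -0.14 (adjusted p = 0.454). At 1, 24 and 72 h no member was called between the doses, beside 0.726%, 1.13% and 0% of all genes called. At an unadjusted p under 0.05 there were 0, 12 and 1 members at those times, beside 9.45%, 18.9% and 9.90% of all genes at that threshold. Some members did not overlap between the doses. At 1 h 10 of 44 lay wholly below 10 cGy and 0 above, beside 7.26% and 9.64% of all genes. At 3 h these were 13 and 1, beside 3.23% and 24.0%. At 24 h they were 1 and 11, beside 16.7% and 3.77%, and at 72 h 13 and 0, beside 5.71% and 8.95%.

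**Figure D3:**
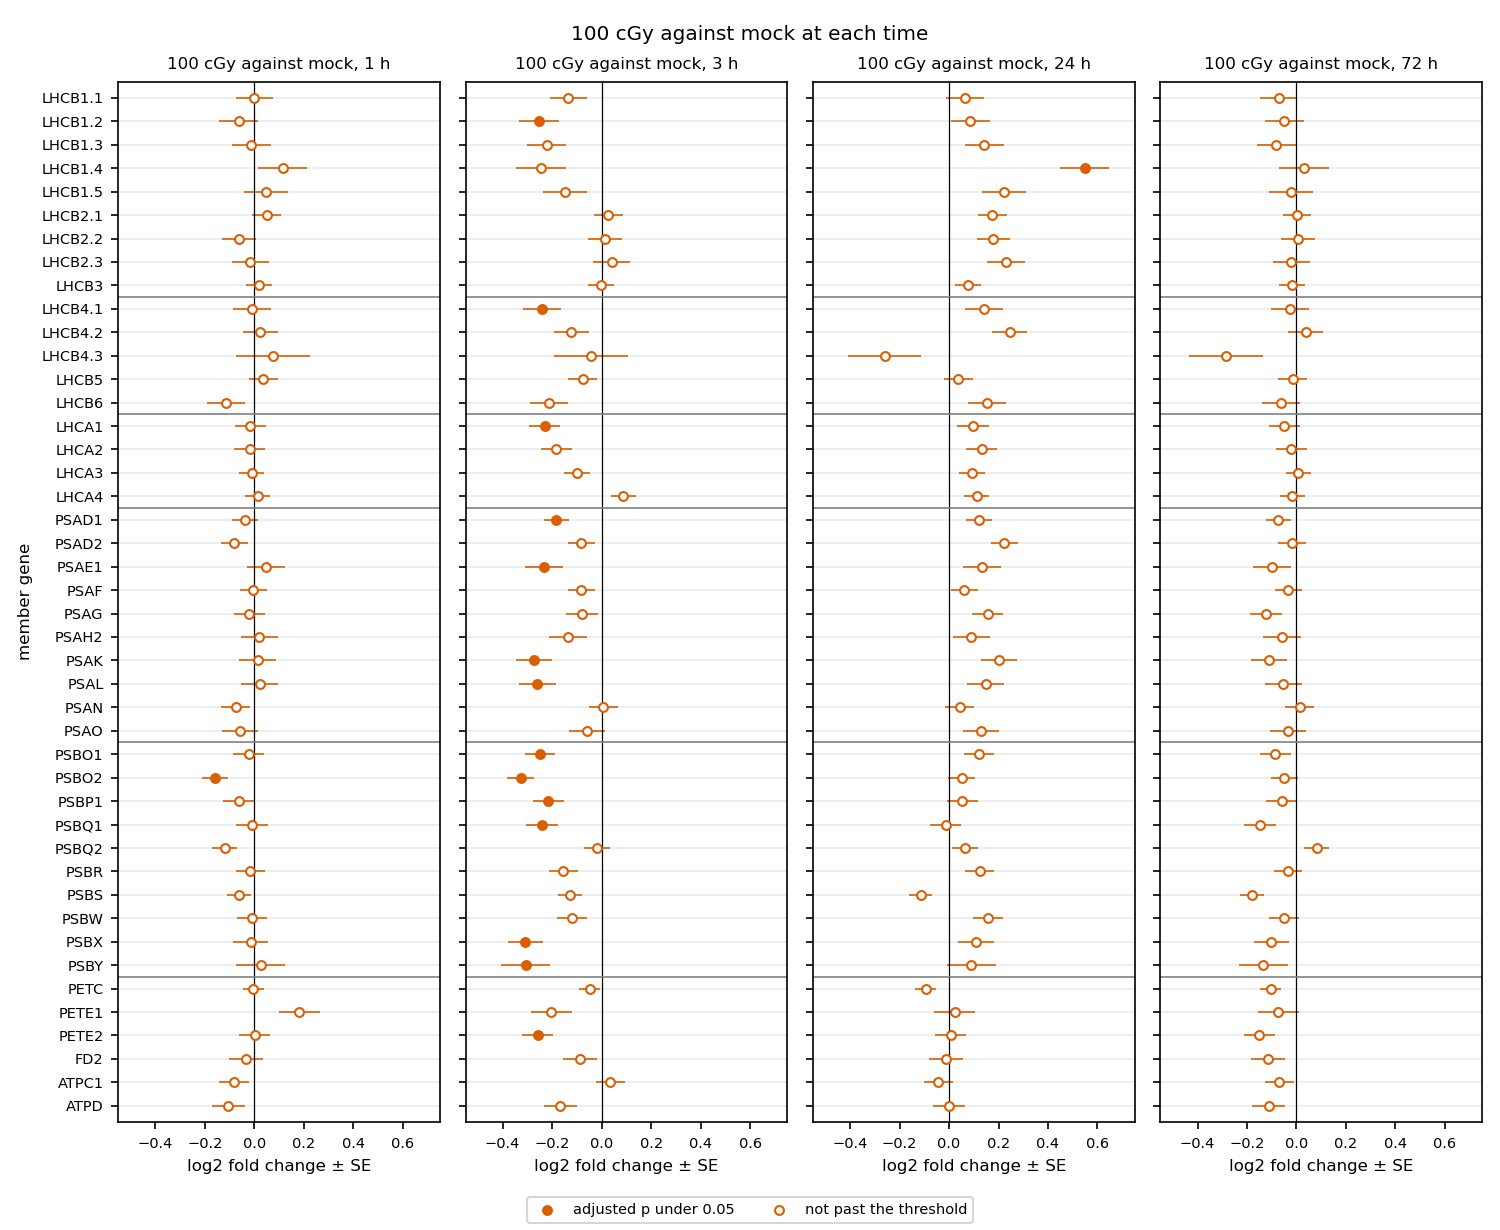
Log2 fold change of 100 cGy against mock for each member, by role, at 1, 3, 24 and 72 h; error bars are SE and filled points have an adjusted p under 0.05. At 3 h 14 members are called and all lie below 0, none of them called with replicate 1 of 100 cGy alone, and at 24 h LHCB1.4 alone is called, at 0.55.

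At 24 h few differences between irradiated and mock rosettes were called. At 100 cGy 1 member rose, beside 0.599% of all genes called, with 38 of 44 changes above 0 and a median of 0.10, beside -0.01 over all genes. At 10 cGy 1 rose and 1 fell, beside 3.29% of all genes, with a median of 0.04, beside 0.07. At 100 cGy 8 of 44 members lay wholly above mock and 1 below, beside 6.72% and 10.2% of all genes. At 10 cGy these were 1 and 2, beside 15.3% and 4.41%. LHCB1.4 had 1231, 1397 and 1509 CPM at 100 cGy and 1246, 1074 and 1096 CPM at 10 cGy, against 902, 809.7 and 1137 CPM in mock. The 100 cGy libraries lay above mock, and the change was 0.55 (SE 0.10, adjusted p = 0.0129) at 100 cGy and 0.27 (SE 0.10, adjusted p = 0.125) at 10 cGy. Summed with LHCB1.5 it changed by 0.28 (SE 0.09, adjusted p = 0.137) at 100 cGy, and all 5 LHCB1 genes summed by 0.15 (SE 0.09, adjusted p = 0.458), neither of them called. Without mock replicate 1 or 2 or 100 cGy replicate 3 the call at 100 cGy was lost (adjusted p = 0.0544, 0.0681 and 0.104). Same-numbered libraries of 100 cGy and mock deviated together at this time, and with the replicate number as a block the adjusted p was 0.0179 over all 36 libraries and 0.205 over the 24 h libraries alone, where it was 0.227 without the block.

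PSAD2 had 1025, 957 and 963 CPM at 10 cGy and 915, 979 and 1054 CPM at 100 cGy, against 834, 783 and 907 CPM in mock at 24 h. Both irradiated groups lay above mock, with changes of 0.22 (SE 0.06, adjusted p = 0.0224) at 10 cGy and 0.22 (SE 0.06, adjusted p = 0.0532) at 100 cGy. PSBS (AT1G44575) encodes the protein that switches photosystem II to heat dissipation under excess light. It had 2092, 2238 and 1945 CPM at 10 cGy and 2248, 2192 and 2203 CPM at 100 cGy, against 2524, 2277 and 2401 CPM in mock. The 10 cGy libraries lay below mock, with changes of -0.20 (SE 0.05, adjusted p = 0.0204) at 10 cGy and -0.12 (SE 0.05, adjusted p = 0.255) at 100 cGy. The call of PSBS was lost without mock replicate 1 or 10 cGy replicate 3 (adjusted p up to 0.21) and that of PSAD2 without mock replicate 1 or 2 or 10 cGy replicate 1 or 3 (up to 0.0905). After rescaling by median ratios the change of PSAD2 at 10 cGy was 0.14 (adjusted p = 0.273), no longer called. With the 24 h libraries alone neither gene was called at 10 cGy (adjusted p = 0.257 for PSAD2 and 0.287 for PSBS), nor was PSBS without the filter (0.0672). With the replicate number as a block in the 24 h libraries alone, the adjusted p at 10 cGy was 0.230 for PSAD2 and 0.286 for PSBS. The 6 leaf markers summed at 24 h to 34947, 34522 and 32236 CPM at 10 cGy and 36136, 36353 and 35947 CPM at 100 cGy, against 38529, 35342 and 38122 CPM in mock, and their part was not tested.

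At 72 h PSBS was called, and no other member was. It had 2083, 2022 and 2121 CPM at 10 cGy and 1948, 2157 and 2024 CPM at 100 cGy, against 2373, 2283 and 2280.2 CPM in mock, so that neither irradiated group overlapped mock. It fell at 10 cGy, by 0.16 (SE 0.05, adjusted p = 0.0394) on the log2 scale, and its change at 100 cGy, -0.18 (SE 0.05, adjusted p = 0.0526), was not called. The 10 cGy call was lost whichever of the 6 libraries was left out (adjusted p up to 0.142), and without the filter (0.12), after rescaling by median ratios (0.0885) or to genes other than the members (0.0513) and with the 72 h libraries alone (0.165). The leaf markers summed to 32076, 32459.9 and 32942 CPM at 10 cGy and 29681, 33439.8 and 31328 CPM at 100 cGy, against 36533, 34653 and 34334 CPM in mock, both irradiated groups below it, and their part was not tested. That made 1 call at 10 cGy, beside 9.38% of all genes, with a median over the members of 0.00. At 100 cGy none was called, beside 1.58% of all genes, with a median of -0.05 and 37 of 44 changes below 0. At an unadjusted p under 0.05 the 100 cGy comparison had 4 members, beside 17.6% of all genes at that threshold. At 10 cGy 3 of 44 members lay wholly below mock and 4 above, beside 11.9% and 17.2% of all genes. At 100 cGy these were 8 and 0, beside 5.26% and 12.3%.

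A set of 12 members, called or not, was followed at 1, 3, 24 and 72 h, and the log2 changes against mock are given in that order. The abundant LHCB1.3 changed by 0.03, -0.06, -0.14 and -0.08 at 10 cGy and -0.01, -0.22, 0.14 and -0.08 at 100 cGy, none of them called and with both signs at each dose. The sum of LHCB1.1 to LHCB1.3 stood at 0.01, -0.06, -0.10 and -0.07 at 10 cGy and -0.02, -0.21, 0.12 and -0.07 at 100 cGy, also without a call. LHCB2.1 stood at 0.11, 0.02, 0.06 and 0.13 at 10 cGy and 0.05, 0.03, 0.18 and 0.00 at 100 cGy, and its sum with LHCB2.2 at 0.05, 0.02, 0.06 and 0.10 at 10 cGy and 0.00, 0.02, 0.18 and 0.00 at 100 cGy. LHCB2.3 (AT3G27690) stood at 0.11, 0.00, 0.23 and 0.07 at 10 cGy and -0.02, 0.04, 0.23 and -0.02 at 100 cGy. Neither of these LHCB2 genes nor that sum was called against mock at any time. The weakly expressed LHCB4.3 had 0.31, 0.11, -0.24 and -0.11 at 10 cGy and 0.08, -0.04, -0.26 and -0.29 at 100 cGy, with no call and an SE of 0.15, the widest of these 12. PSAO (AT1G08380), a small subunit needed for state transitions, had -0.02, -0.01, -0.05 and -0.04 at 10 cGy and -0.06, -0.06, 0.13 and -0.03 at 100 cGy, with no call.

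LHCA1 had changes of -0.01, -0.06, -0.01 and -0.01 at 10 cGy and -0.02, -0.23, 0.10 and -0.05 at 100 cGy. PSAD1 had 0.07, -0.05, 0.04 and -0.04 at 10 cGy and -0.04, -0.18, 0.12 and -0.07 at 100 cGy. In both genes 100 cGy at 3 h was the only call. PSBO1 had -0.01, -0.11, -0.04 and 0.01 at 10 cGy and -0.02, -0.25, 0.12 and -0.08 at 100 cGy. PETE2 had 0.05, -0.02, -0.04 and -0.09 at 10 cGy and 0.00, -0.26, 0.01 and -0.15 at 100 cGy. These too were called at 3 h after 100 cGy and at no other dose and time. PSBO2 had -0.15, -0.06, -0.10 and -0.04 at 10 cGy and -0.16, -0.33, 0.05 and -0.05 at 100 cGy. PETE1 had 0.26, 0.02, 0.11 and -0.08 at 10 cGy and 0.18, -0.20, 0.02 and -0.07 at 100 cGy, so that its largest value was the earliest one at 10 cGy. PSBS had -0.02, -0.08, -0.20 and -0.16 at 10 cGy and -0.06, -0.13, -0.12 and -0.18 at 100 cGy, below 0 at each time and dose.

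The 100 cGy effect itself differed between 3 h and 24 h in 11 members, all with a higher effect at 24 h, beside 0.678% of all genes called higher and 2.21% called lower. The difference of effects was 0.79 (SE 0.14, adjusted p = 0.00447) for LHCB1.4, 0.47 (SE 0.10, adjusted p = 0.0156) for PSAK, 0.42 (SE 0.10, adjusted p = 0.0245) for PSBX, 0.41 (SE 0.11, adjusted p = 0.0344) for PSAL, 0.38 (SE 0.08, adjusted p = 0.0101) for PSBO2 and 0.37 (SE 0.09, adjusted p = 0.0219) for PSBO1. Among LHCB1.4 libraries, 100 cGy at 3 h had 3011, 2248 and 2319 CPM, against 2918, 3184 and 2813 CPM in mock, with 1 of the 3 inside the mock range. At 24 h the order was turned round, with all 3 libraries of 100 cGy above mock. LHCB1.4 and PSBO2 kept the call whichever of the 12 libraries was left out, but with replicate 1 of 100 cGy at 3 h alone none of the 11 was called, LHCB1.4 standing at 0.53 (adjusted p = 0.148) and PSBO2 at 0.25 (adjusted p = 0.188). With the spread taken from the 3 h and 24 h libraries alone, none of the 11 was called either. Summed with LHCB1.5, LHCB1.4 had a difference of 0.45 (SE 0.13, adjusted p = 0.0493). The count was 24 without 100 cGy replicate 1 at 3 h, 21 without mock replicate 3 at 24 h, 2 without mock replicate 1 or 100 cGy replicate 2 at 3 h or without mock replicate 2 or 100 cGy replicate 3 at 24 h, 4 without mock replicate 1 at 24 h, and 5 without mock replicate 2 or 100 cGy replicate 3 at 3 h. Between 1 h and 3 h the 100 cGy effect differed in PETE1 (-0.39, SE 0.12, adjusted p = 0.0296), beside 11.4% of all genes, and that call was lost on leaving out mock replicate 1 or 100 cGy replicate 2 at 1 h or mock or 100 cGy replicate 2 at 3 h. The effect was called different in no member between 24 h and 72 h at 100 cGy, beside 0.00530% of all genes, or between successive times at 10 cGy, beside 14.6%, 2.70% and 0%. At an unadjusted p under 0.05 these 4 comparisons had 12, 3, 7 and 2 members, beside 8.01%, 27.2%, 17.6% and 10.2% of all genes at that threshold.

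The largest movement of these genes was between collection times and was present in mock rosettes. In mock, 33 of 44 members fell at 24 h against 1 h and none rose, beside 18.1% of all genes called lower and 20.3% called higher. The median change was -0.28, with 41 of 44 below 0, beside 0.03 over all genes. Wholly below 1 h lay 33 members and above it 0, beside 22.9% and 27.3% of all genes. LHCII fell in 9 of 9 genes (median -0.51), the minor antenna in 4 of 5 (-0.44) and the photosystem I antenna in 4 of 4 (-0.35). Photosystem I subunits fell in 7 of 10 (-0.28), photosystem II subunits in 8 of 10 (-0.22), and carriers and ATP synthase in 1 of 6 (-0.03). Of the 33 falls, 25 held whichever library was left out, and those of LHCB1.3, LHCB5, PSAE1, PSBQ2, PSBR, PSBX, PSBY and ATPD were lost without at least 1 of them, mock replicate 2 at 24 h being among these in each case. Of the 6 leaf markers 3 rose and none fell, with a median of 0.12. They summed to 38529, 35342 and 38122 CPM at 24 h, against 35323, 36366 and 34433 CPM at 1 h, and the 5 root markers to 145, 179.7 and 147 CPM at 24 h, against 125, 122 and 121 CPM at 1 h. Their part in the falls was not tested.

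LHCB1.4 moved most of all members. In mock it had 902, 809.7 and 1137 CPM at 24 h, against 2283, 2405 and 2367 CPM at 1 h, far outside the 1 h range. Its change was -1.32 (SE 0.10, adjusted p = 2.79e-11), and its neighbour LHCB1.5 on the other strand changed by -0.59 (SE 0.09, adjusted p = 4.72e-06). The sum of these 2 changed by -0.73 (SE 0.09, adjusted p = 2.08e-07). LHCB1.2 had 4259, 4050.3 and 5224 CPM at 24 h, against 6913, 6699.9 and 6499 CPM at 1 h, a change of -0.58 (SE 0.08, adjusted p = 1.26e-06), and LHCB1.1 changed by -0.44 (SE 0.08, adjusted p = 3.66e-05). The most abundant copy, LHCB1.3, had 20772, 18988 and 23054 CPM at 24 h, against 24706, 25038 and 25349 CPM at 1 h, and changed by -0.26 (SE 0.08, adjusted p = 0.00897). The sum of LHCB1.1 to LHCB1.3, which does not depend on how reads were split among these copies, changed by -0.35 (SE 0.08, adjusted p = 0.00127). In LHCB2 the changes were -0.41 (SE 0.06, adjusted p = 1.99e-06) for LHCB2.1, -0.56 (SE 0.07, adjusted p = 1.61e-07) for LHCB2.2 and -0.51 (SE 0.08, adjusted p = 3.73e-06) for LHCB2.3, with -0.48 (SE 0.06, adjusted p = 9.3e-07) for the sum of LHCB2.1 and LHCB2.2 and -0.48 (SE 0.07, adjusted p = 9.88e-07) for all 3. LHCB3 (AT5G54270), the third subunit of LHCII trimers, changed by -0.35 (SE 0.05, adjusted p = 3.67e-06).

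In the minor antenna, which links LHCII to the core, LHCB4.2 changed by -0.59 (SE 0.07, adjusted p = 1.44e-07), LHCB6 (AT1G15820) by -0.50 (SE 0.08, adjusted p = 6.15e-06), LHCB4.1 by -0.44 (SE 0.08, adjusted p = 3.92e-05) and LHCB5 by -0.17 (SE 0.06, adjusted p = 0.0212). LHCB4.3 stood at 0.09 (SE 0.15, adjusted p = 0.678). In the photosystem I antenna LHCA1 had 3915, 3688 and 4363 CPM at 24 h, against 5733, 5717 and 5608 CPM at 1 h, without overlap, and changed by -0.51 (SE 0.06, adjusted p = 1.96e-07). LHCA2 (AT3G61470), LHCA3 (AT1G61520) and LHCA4 changed by -0.28, -0.34 and -0.37. Of the photosystem I subunits PSAO changed by -0.47 (SE 0.07, adjusted p = 8.12e-06) and PSAD2 by -0.45 (SE 0.06, adjusted p = 1.75e-07), beside -0.28 (SE 0.05, adjusted p = 6.54e-05) for the other copy, PSAD1. PSAG (AT1G55670), PSAN (AT5G64040) and PSAH2 (AT1G52230) did not pass, at -0.02, -0.05 and -0.18. PSAF (AT1G31330), the plastocyanin-docking subunit, PSAK, PSAL and PSAE1 fell by 0.28, 0.32, 0.33 and 0.25 on the log2 scale. In photosystem II PSBO2 changed by -0.42 (SE 0.05, adjusted p = 3.77e-07) and PSBO1 by -0.24 (SE 0.06, adjusted p = 0.00256), and PSBS stood at 0.07 (SE 0.05, adjusted p = 0.292). PSBP1, PSBR, PSBX, PSBY, PSBQ2 and PSBW (AT2G30570) fell by 0.26, 0.20, 0.19, 0.28, 0.14 and 0.23, while PSBQ1, at -0.09, did not pass. ATPD fell by 0.18, and ATPC1 and PETE1 stood at -0.01 and -0.20. Of the carriers PETC (AT4G03280), PETE2 and FD2 (AT1G60950) stood at -0.02, -0.05 and 0.08, without a call.

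**Figure D4:**
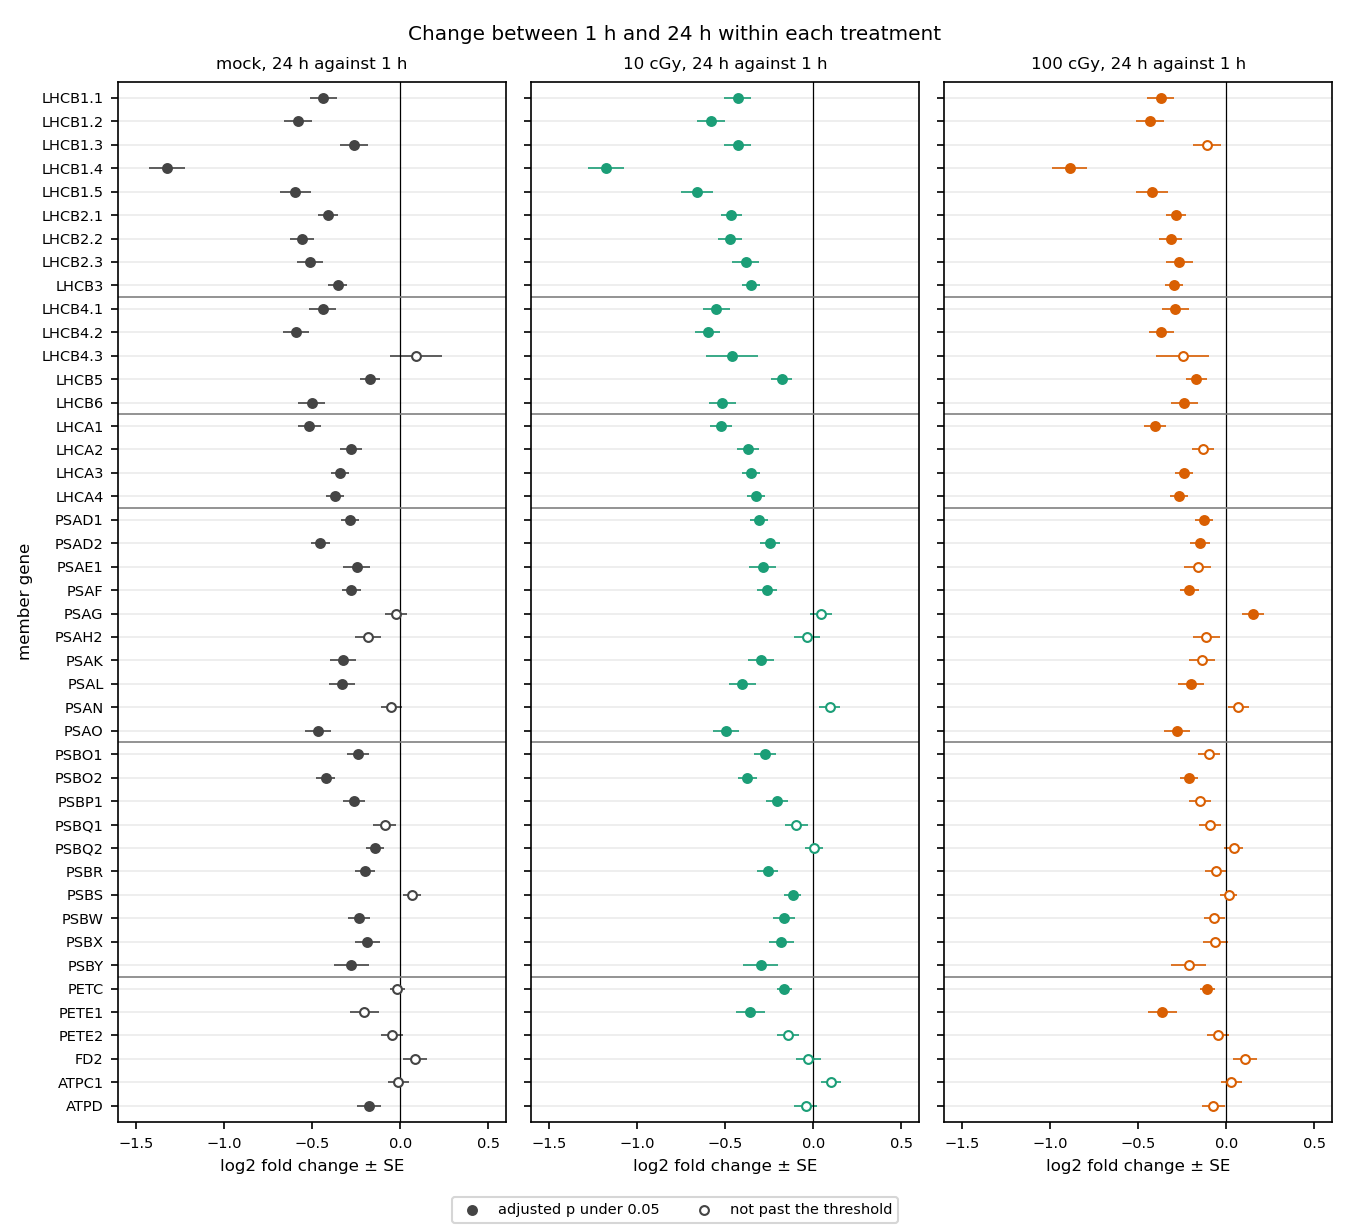
Log2 fold change of 24 h against 1 h for each member, by role, in mock, 10 cGy and 100 cGy rosettes; error bars are SE and filled points have an adjusted p under 0.05. Antenna genes other than LHCB4.3 lie below 0 in all 3 treatments, with LHCB1.4 lowest at -1.32, -1.18 and -0.89.

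The 24 h fall was also present in both irradiated series, which use other libraries but the same collection times. Anything common to the libraries of a collection time is therefore shared by all 3 treatments and cannot be told apart from time itself. At 10 cGy 35 members fell and none rose, beside 21.7% of all genes called lower and 33.7% called higher. At 100 cGy 23 fell and 1 rose, beside 27.4% called lower and 23.1% called higher. Wholly below 1 h lay 35 members at 10 cGy and 32 at 100 cGy, beside 23.3% and 31.6% of all genes. Above it lay 1 and 3, beside 36.0% and 26.2%. In all 3 treatments 21 members fell and none rose, beside 12.6% of all genes called lower in all 3 and 14.5% called higher. They were LHCB1.1, LHCB1.2, LHCB1.4, LHCB1.5, LHCB2.1, LHCB2.2, LHCB2.3, LHCB3, LHCB4.1, LHCB4.2, LHCB5, LHCB6, LHCA1, LHCA3, LHCA4, PSAD1, PSAD2, PSAF, PSAL, PSAO and PSBO2. LHCB1.4 had 1246, 1074 and 1096 CPM at 24 h after 10 cGy, against 2681, 2498 and 2525 CPM at 1 h, and 1231, 1397 and 1509 CPM at 24 h after 100 cGy, against 2489, 2547 and 2601 CPM at 1 h. No group overlapped, and its change was -1.18 (SE 0.10, adjusted p = 8.12e-11) at 10 cGy and -0.89 (SE 0.10, adjusted p = 1.93e-08) at 100 cGy. Its sum with LHCB1.5 changed by -0.76 (SE 0.09, adjusted p = 3.65e-08) at 10 cGy and -0.52 (SE 0.09, adjusted p = 2.01e-05) at 100 cGy, that of LHCB1.1 to LHCB1.3 by -0.45 (SE 0.08, adjusted p = 3.24e-05) and -0.21 (SE 0.08, adjusted p = 0.0365) and that of LHCB2.1 and LHCB2.2 by -0.47 (SE 0.06, adjusted p = 5.31e-07) and -0.30 (SE 0.06, adjusted p = 0.000295) at these doses. The other largest falls at 10 cGy were LHCB1.5 (-0.66), LHCB4.2 (-0.60), LHCB1.2 (-0.58), LHCB4.1 (-0.55) and LHCA1 (-0.52). At 100 cGy they were LHCB1.2 (-0.43), LHCB1.5 (-0.42), LHCA1 (-0.40), LHCB1.1 (-0.37) and LHCB4.2 (-0.37). PSAG, of photosystem I, was the member that rose at 100 cGy (0.15, SE 0.06, adjusted p = 0.0484), a call lost after rescaling by median ratios. Of the calls 30 of 35 at 10 cGy and 17 of 24 at 100 cGy held whichever library was left out. LHCB1.3 stood at -0.11 (SE 0.08, adjusted p = 0.266) at 100 cGy, beside -0.43 (SE 0.08, adjusted p = 3.76e-05) at 10 cGy. The 5 root markers summed to 141, 171 and 204 CPM at 24 h after 10 cGy, against 81.2, 88.9 and 84.6 CPM at 1 h, and to 186, 148 and 135 CPM at 24 h after 100 cGy, against 95.5, 118 and 97.5 CPM at 1 h, higher at 24 h in every library. The leaf markers summed to 34947, 34522 and 32236 CPM at 24 h after 10 cGy, against 33940.1, 34407 and 33588 CPM at 1 h, and to 36136, 36353 and 35947 CPM at 24 h after 100 cGy, against 33032, 33776 and 34941 CPM at 1 h. Their part in the falls was not tested.

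At 72 h the members were back up. In mock, 40 of 44 rose at 72 h against 24 h and none fell, beside 22.0% of all genes called higher, with a median of 0.36. The largest rises were LHCB1.4 (1.29, SE 0.10, adjusted p = 1.52e-11), PSAD2 (0.82, SE 0.06, adjusted p = 7.87e-13), LHCB2.3 (0.75, SE 0.08, adjusted p = 2.81e-09), LHCB1.2 (0.71, SE 0.08, adjusted p = 2.1e-08), LHCB4.2 (0.60, SE 0.07, adjusted p = 5.69e-08) and LHCA1 (0.60, SE 0.06, adjusted p = 7.05e-09). LHCB1.4 had 2355, 2297 and 2259.7 CPM in mock at 72 h, against 902, 809.7 and 1137 CPM at 24 h. Its sum with LHCB1.5 changed by 0.66 (SE 0.09, adjusted p = 5.79e-07), while that of LHCB1.1 to LHCB1.3, at 0.18 (SE 0.08, adjusted p = 0.0787), was not called. LHCB1.3, PSBS, PETC and FD2 were the 4 that did not rise, at -0.05, -0.05, -0.05 and -0.13. Both this comparison and that of 24 h against 1 h use the same 24 h mock libraries. The calls of LHCB4.3, PSAE1, PSAN, PSBR and PETE2 were lost on leaving out at least 1 library, and those of the other 35 held. The 5 root markers summed in mock to 75.5, 84.0 and 115 CPM at 72 h, against 145, 179.7 and 147 CPM at 24 h, without overlap, and the 6 leaf markers to 36533, 34653 and 34334 CPM at 72 h, against 38529, 35342 and 38122 CPM at 24 h. Their part in the rises was not tested.

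Set against 1 h, mock rosettes at 72 h had 11 members higher and 3 lower, beside 33.4% of all genes called in either direction, with a median of 0.05. The largest rises were LHCB4.3 (0.48, SE 0.15, adjusted p = 0.0133), PSAD2 (0.37, SE 0.06, adjusted p = 7.66e-06), ATPC1 (0.30, SE 0.06, adjusted p = 0.000287), ATPD (AT4G09650, 0.27, SE 0.07, adjusted p = 0.00193), PETE1 (0.27, SE 0.08, adjusted p = 0.0126) and PSAG (0.26, SE 0.06, adjusted p = 0.00201). ATPC1 and ATPD encode the gamma and delta subunits of the chloroplast ATP synthase. The falls were LHCB1.3 (-0.32, SE 0.08, adjusted p = 0.00252), LHCB2.2 (-0.20, SE 0.07, adjusted p = 0.0241) and LHCB2.1 (-0.17, SE 0.06, adjusted p = 0.0271). The fall of LHCB1.3 was not called in the sum of LHCB1.1 to LHCB1.3, at -0.17 (SE 0.08, adjusted p = 0.123). LHCB2.1 and LHCB2.2 summed changed by -0.18 (SE 0.06, adjusted p = 0.0302), and with LHCB2.3 added by -0.12 (SE 0.07, adjusted p = 0.178), which was not called. Of the 14 calls 6 held whichever library was left out, and the count was 7 without mock replicate 1 at 1 h or mock replicate 2 at 72 h and 8 without mock replicate 1 at 72 h. At 10 cGy 9 rose and 6 fell, beside 50.6% of all genes. The largest were PSAD2 (0.39), ATPC1 (0.35), PSBQ2 (0.29), ATPD (0.25), PSBO2 (0.23) and PSAN (0.21) among rises. LHCB1.3 (-0.43), FD2 (-0.23), PSAE1 (-0.19), PETC (-0.16), LHCB2.1 (-0.15) and PSBS (-0.13) were the falls. At 100 cGy 9 rose and 3 fell, beside 45.7%, with PSAD2 (0.43), ATPC1 (0.31), PSBQ2 (0.30), ATPD (0.27), LHCB2.3 (0.24) and PSBO2 (0.23) highest and LHCB1.3 (-0.39), LHCB2.1 (-0.22) and PETC (-0.17) lower. In all 3 treatments PSAD1, PSAD2, LHCB2.3, ATPC1 and ATPD rose and LHCB1.3 and LHCB2.1 fell, beside 12.0% of all genes called higher and 9.81% called lower in all 3. At 72 h against 1 h the sum of LHCB1.1 to LHCB1.3 changed by -0.25 (SE 0.08, adjusted p = 0.0139) at 10 cGy and -0.22 (SE 0.08, adjusted p = 0.0295) at 100 cGy, and that of LHCB2.1 and LHCB2.2 by -0.12 (SE 0.06, adjusted p = 0.11), not called, and -0.18 (SE 0.06, adjusted p = 0.0265) at these doses. After rescaling by median ratios the split was 4 up and 6 down at 10 cGy and 5 up and 5 down at 100 cGy.

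Between 1 h and 3 h single genes of the same antenna, LHCII, moved in opposite directions, of which the fall of LHCB2 was also called in the sums over copies and the rise in LHCB1 was not. In mock, 12 members rose and 4 fell at 3 h against 1 h, a smaller share than the 44.1% of all genes called in either direction. The median change of the members was 0.09, and after rescaling by median ratios 7 rose and 5 fell. LHCB1.2 had 8219.6, 9396 and 9074 CPM in mock at 3 h, against 6913, 6699.9 and 6499 CPM at 1 h, without overlap. It rose by 0.41 (SE 0.08, adjusted p = 0.000131), followed by LHCB1.4 (0.34, SE 0.10, adjusted p = 0.00735), PSAD2 (0.25, SE 0.06, adjusted p = 0.000515), PSAG (0.24, SE 0.06, adjusted p = 0.00276), PETE1 (0.23, SE 0.08, adjusted p = 0.0227) and ATPD (0.23, SE 0.07, adjusted p = 0.0048). The sum of LHCB1.1 to LHCB1.3 stood at 0.03 (SE 0.08, adjusted p = 0.816) and that of LHCB1.4 and LHCB1.5 at 0.04 (SE 0.09, adjusted p = 0.738), neither of them called. LHCB2.1 had 3471, 3710.2 and 3795 CPM in mock at 3 h, against 4849, 4729.6 and 4568 CPM at 1 h, all below. It changed by -0.37 (SE 0.06, adjusted p = 7.67e-06), followed by LHCB2.2 (-0.36, SE 0.07, adjusted p = 8.43e-05), PSBS (-0.20, SE 0.05, adjusted p = 0.00147) and PETC (-0.14, SE 0.04, adjusted p = 0.0105). The sum of LHCB2.1 and LHCB2.2 changed by -0.36 (SE 0.06, adjusted p = 3.79e-05). Of these 16 calls 8 held whichever library was left out, those of PSAD1, PSAG, PSAD2, LHCB1.2, LHCB1.4, LHCB2.1, LHCB2.2 and PSBS. Wholly above 1 h lay 17 members and below it 7, beside 29.0% and 25.0% of all genes.

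The same step had 7 rises and 7 falls at 10 cGy, beside 57.2% of all genes, and 6 rises and 15 falls at 100 cGy, beside 55.5%. At 10 cGy the largest rises were LHCB1.2 (0.44), ATPD (0.29), PSBQ2 (0.22), PSAD2 (0.22), PSBO2 (0.19) and ATPC1 (0.16). The largest falls there were LHCB4.3 (-0.48), LHCB2.1 (-0.46), FD2 (-0.33), LHCB2.2 (-0.30), PSBS (-0.26) and LHCB1.3 (-0.21). At 100 cGy the rises were ATPC1 (0.25), PSAD2 (0.25), PSBQ2 (0.23), LHCB1.2 (0.22), PSAG (0.18) and ATPD (0.17). All 6 rises at 100 cGy were lost after rescaling by median ratios, which gave 23 falls. With replicate 1 of 100 cGy at 3 h alone the split was 6 rises and 4 falls, and 9 of the 21 calls were among them. The largest falls at 100 cGy were LHCB4.3 (-0.41), LHCB2.1 (-0.39), LHCB1.3 (-0.33), LHCB2.2 (-0.28), PSAK (-0.28) and PSBO1 (-0.26). In all 3 treatments LHCB2.1, LHCB2.2, PETC and PSBS fell and LHCB1.2, PSAD2, PSBQ2 and ATPD rose. Both are smaller shares than the 12.8% of all genes called lower and 17.7% called higher in all 3. The sum of LHCB1.1 to LHCB1.3 stood at -0.04 (SE 0.08, adjusted p = 0.706) at 10 cGy and -0.16 (SE 0.08, adjusted p = 0.0911) at 100 cGy, not called at either dose, and that of LHCB2.1 and LHCB2.2 changed by -0.39 (SE 0.06, adjusted p = 9.21e-06) and -0.34 (SE 0.06, adjusted p = 5.78e-05). LHCB2.1 had 3698, 3589 and 3859.5 CPM at 3 h after 10 cGy, against 4990.1, 5079.6 and 5236 CPM at 1 h, again without overlap. At that dose 14 members lay wholly below 1 h and 13 above, beside 31.8% and 32.3% of all genes.

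Within families the balance of copies shifted with time. LHCB1.4 made up 2.44, 2.39 and 2.7% of the summed LHCB1 CPM in mock at 24 h, against 4.57, 4.78 and 4.74% at 1 h. At 24 h its share was 3.07, 3.27 and 3.6% at 100 cGy and 3.31, 3.04 and 3.22% at 10 cGy, both above the mock libraries. LHCB1.3 made up 56.3, 56.1 and 54.7% in mock at 24 h, against 49.5, 49.8 and 50.8% at 1 h. LHCB1.2 made up 17.1, 17.6 and 17.4% in mock at 3 h, against 13.8, 13.3 and 13.0% at 1 h, and LHCB2.3 made up 17.3, 17.8 and 17.2% of LHCB2 at 72 h, against 13.3, 13.5 and 14.0% at 1 h. These shares were not tested, and they are subject to the split of reads between copies. In LHCB4 the copy LHCB4.3 stayed under 0.69% in every library.

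In families of 2 copies PSBO2 made up 23.6, 23.9 and 23.8% of PSBO at 1 h after 10 cGy and 23.6, 24.2 and 23.7% after 100 cGy, against 25.7, 25.7 and 25.3% in mock. PETE1 made up 7.68, 7.29 and 7.37% of plastocyanin CPM at 1 h after 10 cGy and 7.15, 7.39 and 7.39% after 100 cGy, against 6.17, 6.52 and 6.84% in mock. PSAD2 made up 34.2, 33.9 and 34.9% of PSAD at 24 h after 10 cGy and 32.1, 33.4 and 33.9% after 100 cGy, against 32.0, 31.3 and 31.3% in mock. PSBQ1 made up 45.8, 46.6 and 46.9% of PSBQ at 72 h after 10 cGy and 45.0, 49.9 and 46.8% after 100 cGy, against 51.7, 51.0 and 50.8% in mock, so that each irradiated library lay below each mock library. For PSBO2 and PETE1 at 1 h the irradiated libraries also lay apart from mock. Each family is given here at a single time, and the order was not the same at every time. PSBO2 at 72 h made up 27.1, 26.7 and 26.9% after 10 cGy, below mock at 27.3, 27.9 and 27.5%. After 100 cGy it made up 28.4, 28.0 and 27.8%, which overlapped mock. None of these shares was tested, and no such share over all genes stands beside them.

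**Figure D5:**
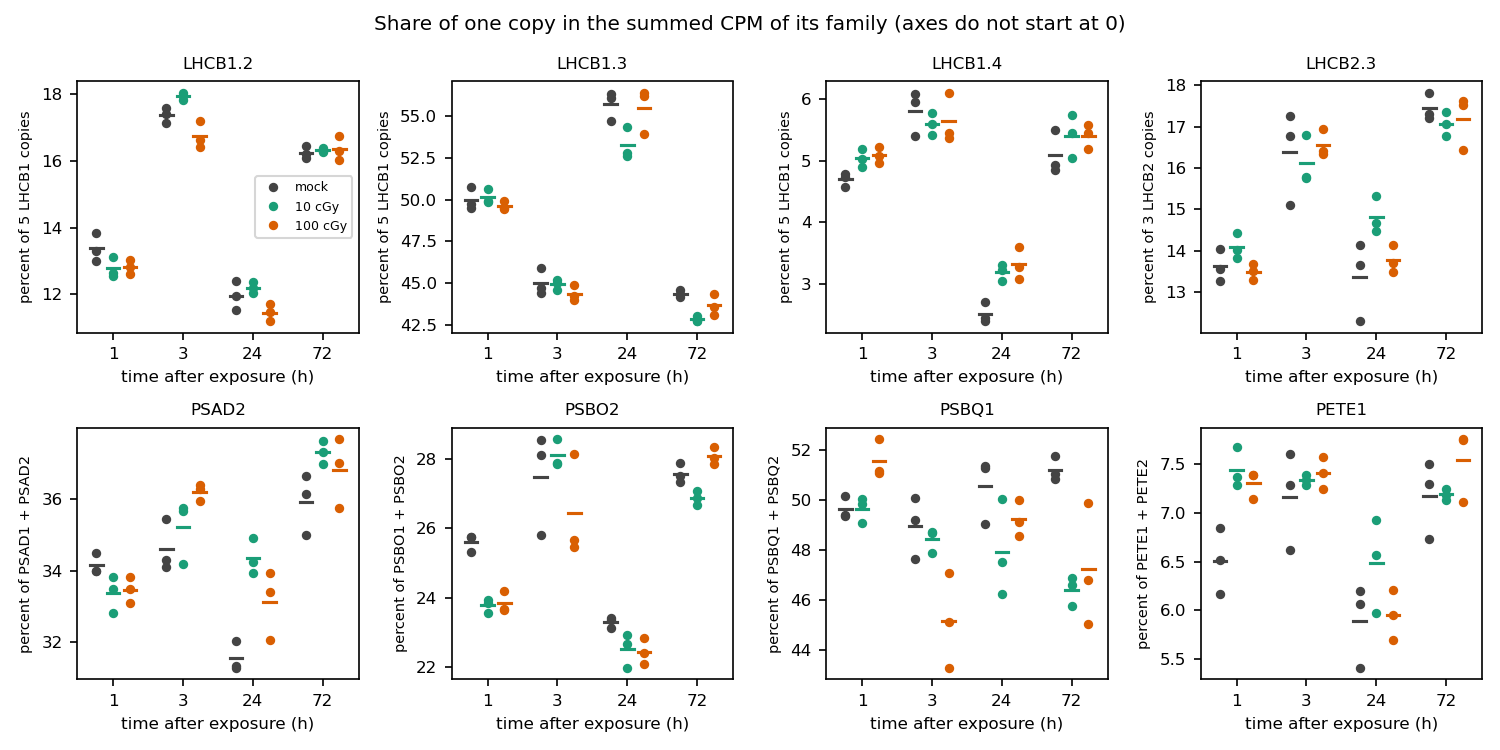
Percent of its family's summed CPM held by 1 copy, 1 point per library, by time and dose; dashes are group means and axes do not start at 0. LHCB1.4 is lowest at 24 h, between 2.39% and 2.70% in mock.

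Members with CCAATC upstream had a median change of -0.39 (14 genes) at 24 h against 1 h in mock, and those without it -0.25 (30 genes). For the G-box the medians were -0.28 with it (8 genes) and -0.28 without it (36 genes), and for the I-box -0.28 (11 genes) and -0.26 (33 genes). At 3 h, 100 cGy against mock, the medians were -0.11 with CCAATC and -0.17 without it, -0.15 with the G-box and -0.14 without it, and -0.14 with the I-box and -0.15 without it. Of the 14 members with CCAATC 10 are antenna genes, a role that itself fell more at 24 h. Within the 18 antenna genes the medians at 24 h against 1 h in mock were -0.48 with CCAATC (10 genes) and -0.40 without it (8 genes), and among the other 26 members -0.10 (4 genes) and -0.24 (22 genes), the opposite order. None of these medians was tested. LHCB1.4, the member that fell most, had none of the letters in its window.

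Other genes of the same pathways were counted in the same comparisons. With replicate 1 of 100 cGy at 3 h alone 117 rather than 2346 of all genes were called at 3 h, and the lists below were not counted in that fit. Of 19 further thylakoid electron transport genes 6 fell and none rose at 3 h after 100 cGy, beside 1.86% of all genes called lower and 10.6% called higher, among them FD1 (-0.54), PSBTN (-0.40), PSB27 (-0.32) and PSB28 (-0.31), the last pair being photosystem II assembly factors. In mock at 24 h against 1 h, 5 of these rose and 3 fell, beside 20.3% of all genes called higher and 18.1% called lower, with rises of FD1 (0.50), PGR5 (0.42), of cyclic electron flow, LHCB7 (0.40) and PETM (0.27). Of 18 chlorophyll synthesis genes none rose at 1 h, while 6 fell at 10 cGy, beside 11.8% of all genes called lower, and 5 at 100 cGy, beside 7.37%. CAO, which makes chlorophyll b, changed by -0.37 at 10 cGy and -0.34 at 100 cGy. HEMA1, at the entry of the pathway, changed by -0.28 at 10 cGy and -0.34 at 100 cGy, and the protochlorophyllide reductase PORC by -0.30 at 10 cGy and -0.33 at 100 cGy. At 3 h after 100 cGy HEMA1 (0.24) and CAO (0.23) rose and PORC (-0.22) fell. In mock at 24 h against 1 h, 1 rose and 5 fell, beside the same 20.3% called higher and 18.1% called lower, with the reductases PORB (-2.19), PORA (-1.89) and PORC (-0.41) lower and HEMA1 (0.29) higher.

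Of 10 regulators of photosynthesis genes, 3 rose and 3 fell at 1 h after 10 cGy, beside 25.3% of all genes called in either direction, and 1 rose and 3 fell after 100 cGy, beside 17.6%. The sigma factor SIG5, which directs chloroplast transcription, changed by -0.45 at 10 cGy and -0.64 at 100 cGy, and GLK2, an activator of antenna genes, by 0.20 at 10 cGy and 0.22 at 100 cGy. At 3 h after 100 cGy 3 rose and 1 fell, beside 10.6% of all genes called higher and 1.86% called lower, with GLK1 at 0.20, SIG1 at 0.35, SIG5 at 0.42 and CGA1, a GATA factor, at -0.47. In mock at 24 h against 1 h, a comparison with 20.3% of all genes called higher and 18.1% called lower, 4 rose and 3 fell, among them GLK1 (0.29) and SIG1 (0.33) up and GLK2 (-0.30) and GNC (-0.81) down. Of 8 antenna insertion and phosphorylation genes 1 rose and 2 fell in that comparison, with the insertion factors CPSRP43 (-0.42) and ALB3 (-0.15) lower. At 3 h after 100 cGy the thylakoid kinases STN7 (0.18) and STN8 (-0.24) moved apart. Of 7 chlorophyll breakdown genes 2 rose in mock at 24 h against 1 h, beside the 20.3% above, SGR1 (0.68) and NOL (0.21), and 1 rose at 3 h after 100 cGy, beside the 10.6% above, PPH (0.55).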

How the data were processed

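Values are CPM, reads of a gene scaled to a common library total, for 33977 genes in 36 libraries, as deposited by the authors, and each library sums to the same total. A second table deposited by the authors holds the natural log of CPM + 1 and differed from the log of the first by at most 4.1e-09. Trimmomatic 0.32, STAR 2.5.2b, RSEM 1.2.28 and the build TAIR10 are named per the submitters' processing notes, without role or order. Only 87.6% to 90.4% of values above 0 were whole multiples of a library's most frequent low value, which was assumed to be 1 read (tolerance 0.02). Count tests were therefore not used, and depth was read from that value. Libraries are directional, per the labels' protocols. How strand was used in counting is not given in the sources used here.

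The groups came from the sample titles, and 0 data columns were left unused. The 18875 genes at 1 CPM or above in 3 or more libraries entered 1 limma 3.58.1 fit (R 4.3.3) of log2(CPM + 0.5) on the 12 group means with an intensity trend. The pseudocount makes folds of low genes too small. Adjusted p-values follow Benjamini and Hochberg over all genes tested within a comparison, with calls under 0.05. The fit was tested on simulated log values for 100 cGy against mock at 3 h alone, with independent noise. That simulation held no libraries that stood apart and did not test the filter or the pseudocount. Comparisons were each dose against mock, 100 cGy against 10 cGy, the change of each dose effect between successive times, and mock times against 1 h. Time steps within each dose, 72 h against 24 h in mock, and sums over copies were added after seeing the data.

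The members and gene lists were chosen with earlier results of these data known. Called members are named in full up to 10 per comparison and otherwise at least as the 6 largest rises and 6 largest falls. The same 12 members are given at every dose and time, copies are set side by side, other members are named as an account of the list, and other lists are given by counts and up to 4 called genes with the smallest p. Files hold locus identifiers, and symbols follow RefSeq for TAIR10.1, in which all 44 loci were found, except for some commonly used names such as PETM. Sequences and coordinates are from that assembly, at the loci of its own annotation. Same-numbered replicates correlated, after removing group means, at -0.429 to 0.412 over 36 pairs of libraries, above 0.1 in 9. The numbers were therefore not taken to pair libraries except for 100 cGy and mock at 24 h (0.248, 0.341 and 0.31). That pairing is read from the data and not from the labels. Also at 24 h, replicates 1, 2 and 3 of 10 cGy correlated with mock at 0.412, 0.115 and -0.085. With 100 cGy they correlated at 0.352, 0.367 and -0.258. Alternatives were other pseudocounts, no filter, 2 rescalings, no trend, a replicate block, libraries of the times compared alone, leaving out each library and, added after seeing the data, 100 cGy at 3 h with replicate 1 alone, because its replicates 2 and 3 stood apart.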

Additional observations from a re-analysis of the deposited data

Results flagged for a closer look

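The effect of 100 cGy differed between 24 h and 3 h in 11 members by the test of the difference itself in limma, the effect at 24 h being the higher in each. The differences (effect at 24 h minus effect at 3 h, log2) were 0.79 for LHCB1.4, 0.47 for PSAK, 0.42 for PSBX, 0.41 for PSAL, 0.38 for PSBO2, 0.37 for PSBO1, 0.37 for LHCB4.2, 0.33 for LHCA1, 0.32 for LHCA2, 0.31 for PSAD2 and 0.3 for PSAD1. Summed with its close copy LHCB1.5, LHCB1.4 had a difference of 0.45 (adjusted p = 0.0493). LHCB1.4 and PSBO2 kept their calls whichever of the 12 libraries was left out. With the spread taken from the 3 h and 24 h libraries alone, 0 members were called, and likewise 0 with replicate 1 of 100 cGy at 3 h alone. The count was 21 without mock replicate 3 at 24 h and 24 without 100 cGy replicate 1 at 3 h.

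The effect of 100 cGy on PETE1, the minor plastocyanin copy, was lower at 3 h than at 1 h, with a difference (effect at 3 h minus effect at 1 h, log2) of -0.39. PETE1 was lost on leaving out 1 library, and the count of members was 0 without mock replicate 1 or 100 cGy replicate 2 at 1 h or mock replicate 2 or 100 cGy replicate 2 at 3 h, 5 without mock replicate 3 at 3 h and 14 without 100 cGy replicate 1 at 3 h. With that replicate alone PETE1 stood at -0.27 (adjusted p = 0.28).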

How the results depend on the processing

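No called member changed sign on leaving out 1 library or under the other refits of single genes, except with replicate 1 of 100 cGy at 3 h alone. A sum over copies is another quantity and not a refit of a single gene. LHCB1.2 rose at 3 h against 1 h at 10 and 100 cGy, by 0.44 and 0.22. The sum of LHCB1.1 to LHCB1.3, of which LHCB1.3 is the largest part and itself fell, stood at -0.04 and -0.16. With replicate 1 of 100 cGy at 3 h alone, added after seeing the data, LHCB4.1 and PSBY stood at 0.028 and 0.046 against mock and LHCB4.1 at 0.036 against 10 cGy, and LHCB1.5, LHCB4.2 and PSBY at 0.031, 0.0036 and 0.11 at 3 h against 1 h. The members called were then 0 against mock, 0 against 10 cGy, 0 for each of the 100 cGy effect differences with 3 h, and 10 at 3 h against 1 h (21 as reported). The pseudocount and the trend moved no count of member calls by over 1.5 times, except that 1 member differed between 100 cGy and 10 cGy at 24 h without the trend. The falls in mock at 24 h against 1 h numbered 25 to 35 when leaving out 1 library, beside 33 as reported. Counts of called members were less stable for the doses. Without the filter they were 1 for 10 cGy and 0 for 100 cGy at 1 h, 5 for 100 cGy at 3 h (14 as reported), 2 for 100 cGy against 10 cGy at 3 h, 1 for 10 cGy at 24 h, 0 for 10 cGy at 72 h, 4 for the 100 cGy effect at 24 h minus 3 h, and 8 in mock and 9 at 10 cGy for 72 h against 1 h. After rescaling by median ratios they were 1 and 0 at 1 h, 14 for 100 cGy against 10 cGy at 3 h, 1 for 10 cGy at 24 h, 0 for 10 cGy at 72 h, 9 for mock at 72 h against 1 h and 4 for the 100 cGy effect at 3 h minus 1 h. Rescaled to genes other than the members they were 1 and 0 at 1 h, 0 for 10 cGy at 72 h and 2 for the 100 cGy effect at 3 h minus 1 h. With the libraries of the times compared alone they were 4 for 10 cGy and 3 for 100 cGy at 1 h, 1 for 100 cGy at 3 h, 0 for 100 cGy against 10 cGy at 3 h, 0 for either dose at 24 h, 0 for 10 cGy at 72 h, and 2 and 0 for the 100 cGy effect at 3 h minus 1 h and at 24 h minus 3 h.

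The replicate numbers are shared by all groups but were not taken to pair them overall: a replicate block over all 36 libraries gave 13 falls for 100 cGy at 3 h, and moved no count of member calls by over 1.5 times. The block with only the libraries of the times compared, added after seeing the data, gave 2 members for 100 cGy at 1 h, 0 for 100 cGy against mock or 10 cGy at 3 h, 0 for either dose at 24 h, 0 for 10 cGy at 72 h, and 2 and 0 for the same 2 effect differences. Leaving out 1 library gave 0 to 1 members for 10 cGy and 0 to 0 for 100 cGy at 1 h, 0 to 1 and 2 to 24 at 3 h, 0 to 6 and 0 to 2 at 24 h, and 0 to 1 and 0 to 1 at 72 h. It gave 1 to 22 for 100 cGy against 10 cGy at 3 h and 0 to 1 at 24 h. For changes of the effect it gave 0 to 2 and 0 to 4 at 10 cGy (3 h minus 1 h and 24 h minus 3 h) and 0 to 14 and 2 to 24 at 100 cGy, and for mock at 72 h against 1 h it gave 7 to 12 (14 as reported). The cause of these changes was not tested. The lowest member, LHCB4.3, had 19.8 to 47.0 CPM, beside at most 0.136 CPM for 3 reads.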
